A study of Homo sapiens with 12 samples.

Results

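The genes described here are 10 genes of DNA replication licensing and of the MCM helicase, MCM2, MCM3, MCM4, MCM5, MCM6, MCM7, MCM10, CDC6, CDT1 and CDC45. They were chosen by name from what is known of their function, with earlier results of these data already known. Each was found by its gene identifier among the 60754 genes of every deposited table. All 10 passed the filter on low counts and were tested among 13422 protein-coding genes. The libraries are bulk RNA sequencing of 2 human acute myeloid leukemia (AML) cell lines exposed for 36 h to duocarmycin SA (DSA), a natural product that binds the minor groove and alkylates adenine. Molm-14 cells, a monocytic line with an MLL fusion, were sequenced without DSA, at 11.1 pM (low dose) and at 100 pM (high dose). HL-60 cells, a promyelocytic line, were sequenced without DSA, at 112.7 pM (low dose) and at 500 pM (high dose). Each of these 6 groups held 2 libraries, 12 in all. The labels describe the controls as not treated, whereas the methods of the study name a vehicle. The lines were grown in different media with different amounts of serum and received different doses, so a difference between the lines cannot be told apart from these conditions.

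A replication origin is licensed in G1, when the origin recognition complex together with CDC6 and CDT1 loads a pair of MCM2 to MCM7 rings around the DNA. Geminin, the product of GMNN, binds CDT1 after S phase begins and thereby prevents a second round of loading. In S phase CDC45 and the GINS complex join each ring to form the active helicase (the CMG complex), and MCM10 is needed for that helicase to start unwinding. Most of these genes are known targets of E2F transcription factors, and their transcripts are used as markers of proliferating cells.

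Levels are given as CPM, a gene's counts relative to the size of its library as scaled by edgeR's TMM method, for each library or as the mean ± SD of 2 libraries. Total expected counts ran from 21168248 to 63900114 per library, and differences were tested with edgeR's quasi-likelihood test, with p-values adjusted over all genes tested and a call at an adjusted p under 0.05. No source used here says that the libraries of a group came from separate cultures, so the p-values measure the spread between these libraries, which may be technical. In bulk libraries, fewer cells that express a gene and less RNA of it per cell cannot be told apart. HOXA9, a homeobox gene raised by MLL fusions, stood at 119 ± 1.39 CPM in untreated Molm-14 cells but 0.0558 ± 0.041 CPM in untreated HL-60 cells. Of the promyelocyte genes, MPO (149 against 15680 CPM) and PRTN3 (556.1 against 2067 CPM) were lower in Molm-14 than in HL-60 controls. ELANE went the other way (871.7 against 414.5 CPM). The leukocyte genes PTPRC and CD33 were present in both lines. The myeloid gene ANPEP stood at 0.188 ± 0.181 CPM in Molm-14 cells without DSA and at 329 ± 1.8 CPM in HL-60 cells without DSA. The T cell genes CD3E and CD8A were at or near 0 in the controls of both lines. CD3E stood at 0.349 and 0.288 CPM in the HL-60 controls and at 2.29 and 2.64 CPM at 500 pM, and CD8A was at 0 in both HL-60 controls.

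The E2F site is the promoter element for which these genes are best known, and stretches of their promoters are printed to show where its letters lie. RefSeq promoter windows (GRCh38.p14, 250 bases before to 50 after a gene's start) were at hand for 8 of the 10 genes, and MCM4 and MCM5 are not among them. MCM7 and CDC45 had 3 windows each, of which the one with most matches is printed. Each stretch runs 5′ to 3′ on the strand of its gene. Capitals mark matches, on either strand, to the E2F letters TTTCCCGC, TTTGGCGC, TTTCGCGC or TTTGCCGC, or to the near variant TTTGGCGG, which was added after the sequences had been seen. Overlapping matches run together, as in MCM2, where the same word is read on both strands, and in MCM6, where TTTGGCGC is read on the printed strand and TTTCGCGC on the other. The helicase subunits come first.
MCM2: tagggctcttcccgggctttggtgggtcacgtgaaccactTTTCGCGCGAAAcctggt
MCM3: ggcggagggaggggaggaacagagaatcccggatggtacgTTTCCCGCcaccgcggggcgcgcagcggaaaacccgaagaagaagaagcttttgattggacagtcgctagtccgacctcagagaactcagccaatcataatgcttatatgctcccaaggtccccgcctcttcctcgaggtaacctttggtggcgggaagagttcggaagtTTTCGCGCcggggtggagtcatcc
MCM6: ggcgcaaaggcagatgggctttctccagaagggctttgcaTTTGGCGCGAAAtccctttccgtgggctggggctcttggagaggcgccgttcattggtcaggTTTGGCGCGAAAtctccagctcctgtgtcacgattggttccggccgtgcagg
MCM7: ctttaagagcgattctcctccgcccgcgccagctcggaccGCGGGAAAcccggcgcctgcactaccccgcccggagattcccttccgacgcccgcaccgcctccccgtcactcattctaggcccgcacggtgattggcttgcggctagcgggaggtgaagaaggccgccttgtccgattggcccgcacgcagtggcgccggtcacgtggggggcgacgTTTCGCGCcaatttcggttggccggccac

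The loaders CDC6 and CDT1 and the activators CDC45 and MCM10 follow, with the same use of capitals.
CDC6: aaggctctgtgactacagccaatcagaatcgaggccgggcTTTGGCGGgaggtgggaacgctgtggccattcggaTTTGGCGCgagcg
CDT1: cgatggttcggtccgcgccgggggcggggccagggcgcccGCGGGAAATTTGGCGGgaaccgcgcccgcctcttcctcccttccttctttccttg
CDC45: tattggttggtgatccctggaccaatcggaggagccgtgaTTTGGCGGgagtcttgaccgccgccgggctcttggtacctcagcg
MCM10: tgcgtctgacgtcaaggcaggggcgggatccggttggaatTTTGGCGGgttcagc

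The printed stretches lie at chr3:127598373-127598430 for MCM2, chr6:52284723-52284956 for MCM3, chr2:135876482-135876635 for MCM6 and chr7:100101378-100101624 for MCM7. Those of the loaders and activators lie at chr17:40287811-40287898 for CDC6, chr16:88803714-88803808 for CDT1, chr22:19479855-19479939 for CDC45 and chr10:13161523-13161577 for MCM10. MCM3, MCM6 and MCM7 are read from the minus strand and the others from the plus strand. One of the 4 E2F words was found in 6 of the 8 genes with a window (MCM2, MCM3, MCM6, MCM7, CDC6 and CDT1), whereas 3.99% of all 27305 genes in the promoter table had one. The added variant was found in 4 of the 8 (MCM10, CDC6, CDT1 and CDC45), against 0.809% of all genes. It was chosen with these sequences in view, so a higher share in them followed from the choice. Among 53 other replication genes with a window, 22 (41.5%) had an E2F word. The NF-Y letters CCAAT were found in 6 of the 8 genes, against 39.7% of all genes, and the CHR letters TTTGAA or TTCGAA in 1, MCM6, against 19.5%. A match is a description of the sequence and not a measured binding site.

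**Figure D1:**
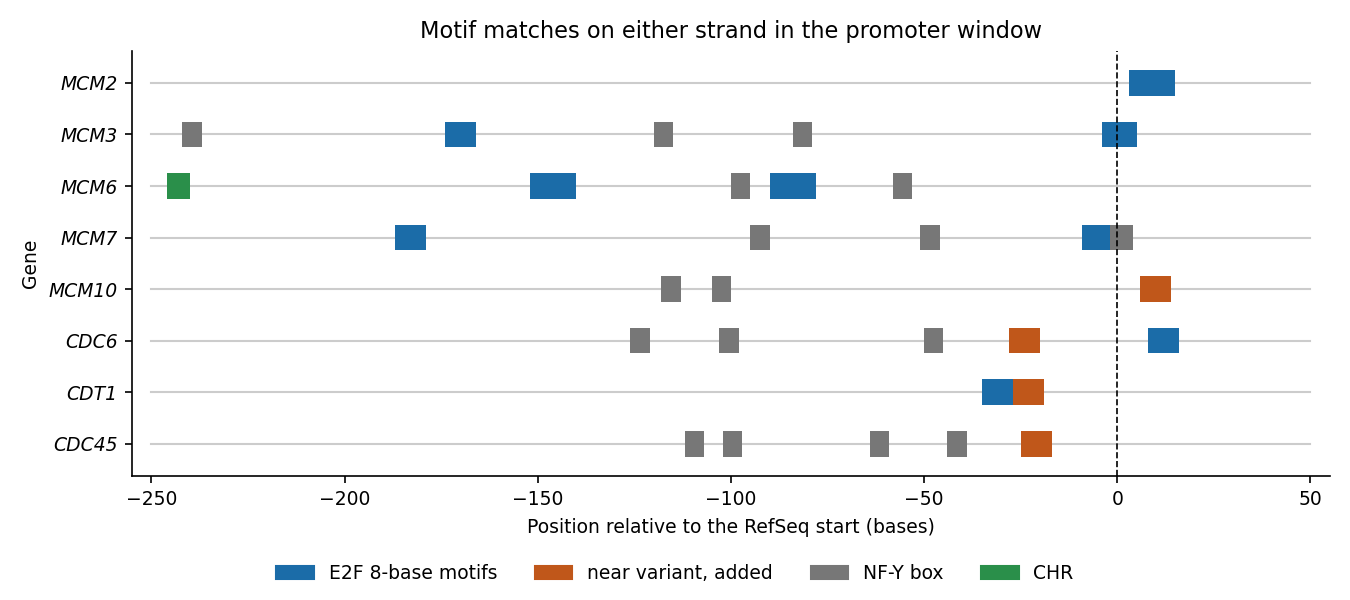
Positions of motif matches on either strand, in bases relative to the RefSeq start (dashed line), in 1 promoter window of each of 8 genes, for MCM7 and CDC45 the one of 3 with most matches; blue boxes mark E2F words, orange boxes the variant added later, grey boxes the NF-Y letters and the green box the CHR letters. An E2F word lies in the windows of 6 genes, and MCM10 and CDC45 hold the variant added later without one.

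Before DSA, MCM4 had the highest transcript level of the set in Molm-14 cells and MCM7 in HL-60 cells, and MCM10 had the lowest in both. Levels of different genes were compared on the TPM scale, a share of all transcripts that corrects for transcript length. In Molm-14 controls the TPM were 434 ± 11 for MCM4, 293 ± 6.29 for MCM7, 192 ± 1.61 for MCM3, 178 ± 0.424 for MCM5 and 139.6 ± 0.156 for MCM2. The remaining genes followed with 104 ± 1.75 TPM for CDT1, 99.2 ± 3.1 for MCM6, 56.7 ± 0.99 for CDC6, 47.3 ± 0.757 for CDC45 and 29.5 ± 2.88 for MCM10. Each gene in this order lay above the next one in both libraries. In HL-60 controls MCM7 led with 301 ± 6.44 TPM, and MCM2 with 202 ± 3.01, MCM5 with 195 ± 9.31 and MCM4 with 193 ± 8.22 TPM followed, 3 neighbours whose libraries overlapped. Below them came MCM3 with 174 ± 5.98, MCM6 with 109 ± 5.44, CDC45 with 96.5 ± 3.34, CDC6 with 59.2 ± 1.78, CDT1 with 55.5 ± 0.0849 and MCM10 with 17.5 ± 0.983 TPM, each apart from the next. With DSA the order of TPM in Molm-14 cells was that of the controls at 100 pM, and at 11.1 pM MCM6 and CDT1 changed places with overlapping libraries. In HL-60 cells MCM5 stood second at both doses (222 ± 4.61 TPM at 112.7 pM and 215 ± 12.4 TPM at 500 pM) and CDT1 stood above CDC6 (73.7 ± 1.41 against 66.6 ± 0.0212 TPM at 112.7 pM, and 75.9 ± 0.332 against 69.5 ± 0.163 TPM at 500 pM). The HL-60 neighbours with overlapping libraries were MCM2 and MCM4 at 112.7 pM and MCM4 and MCM3 at 500 pM.

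The untreated lines differed at 6 of the 10 genes. Relative to Molm-14 controls, 4 were lower in HL-60 controls, where 40.1% of all genes tested were lower, and 2 were higher, where 43.9% of all genes were. MCM4 was 2.25-fold lower in HL-60 (log2 difference −1.17, SE 0.032, adjusted p = 3.63e-17) and CDT1 1.99-fold lower (−0.99, SE 0.039, adjusted p = 8.05e-15). MCM10 was lower by a log2 difference of −0.68 (SE 0.043) and MCM3 by −0.22 (SE 0.033). CDC45 was 1.91-fold higher in HL-60 (0.93, SE 0.043, adjusted p = 1.17e-13) and MCM2 1.37-fold higher (0.45, SE 0.029). The log2 differences of MCM5 (0.06, SE 0.032), MCM6 (0.04, SE 0.035), CDC6 (0.02, SE 0.037) and MCM7 (−0.01, SE 0.028) did not pass the test.

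With DSA, the set fell as a whole at the high dose in Molm-14 cells, whereas in HL-60 cells it was called in both directions, as all genes were. At 100 pM in Molm-14 cells all 10 genes were lower than in the controls and none was higher, while 21.9% of all genes tested were lower and 22.9% higher. Their median log2 fold change was −0.62, with a range from −0.81 (MCM2) to −0.40 (CDC6), beside a median of 0.00 over all genes. At 500 pM in HL-60 cells 6 of the 10 were lower and 3 higher, and the median of the set was −0.14. Of all genes 37.8% were lower and 35.8% higher there. With total-count scaling 3 of the 10 were lower and 5 higher, while 3376 of all genes were lower and 6304 higher. At the low doses 2 of the 10 were lower and none higher in Molm-14 cells, where 0.238% of all genes were lower and 0.969% higher. That count of lower genes was 4 with DESeq2, 0 without Molm-14 control replicate 1, and 1 without control replicate 2 or without low-dose replicate 2. In HL-60 cells none was lower and 5 were higher at 112.7 pM, where 27.4% of all genes were lower and 24.2% higher, and the median of the set was 0.09. The 2 doses of a line were compared with the same controls, so these counts share libraries. In each direction with no call there was also none at an unadjusted p under 0.05, and none with DESeq2 or limma-voom. The share of counts on mitochondrial genes moved with dose, from 1.47 to 1.68% in Molm-14 controls to 2.72 to 4.1% at 100 pM, and from 2.22 to 2.47% in HL-60 controls to 4.64 to 5.46% at 500 pM. In HL-60 cells the 3 promyelocyte genes MPO, ELANE and PRTN3 summed to 18040 and 18282 CPM in the controls, 13745 and 14120 CPM at 112.7 pM, and 6406 and 6442 CPM at 500 pM, whereas in Molm-14 cells they summed to 1574 and 1580 CPM without DSA and 1594 and 1495 CPM at 100 pM. MPO made up most of the HL-60 sums, with means of 15680 CPM in the controls and 5888 CPM at 500 pM. ELANE went from 414.5 to 120.9 CPM there and PRTN3 from 2067 to 415.1 CPM. In Molm-14 cells from control to 100 pM, MPO went from 149 to 117.9 CPM and ELANE from 871.7 to 843.8 CPM. PRTN3 went from 556.1 to 582.9 CPM. The part of the mitochondrial share or of these 3 genes in these results was not tested.

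**Figure D2:**
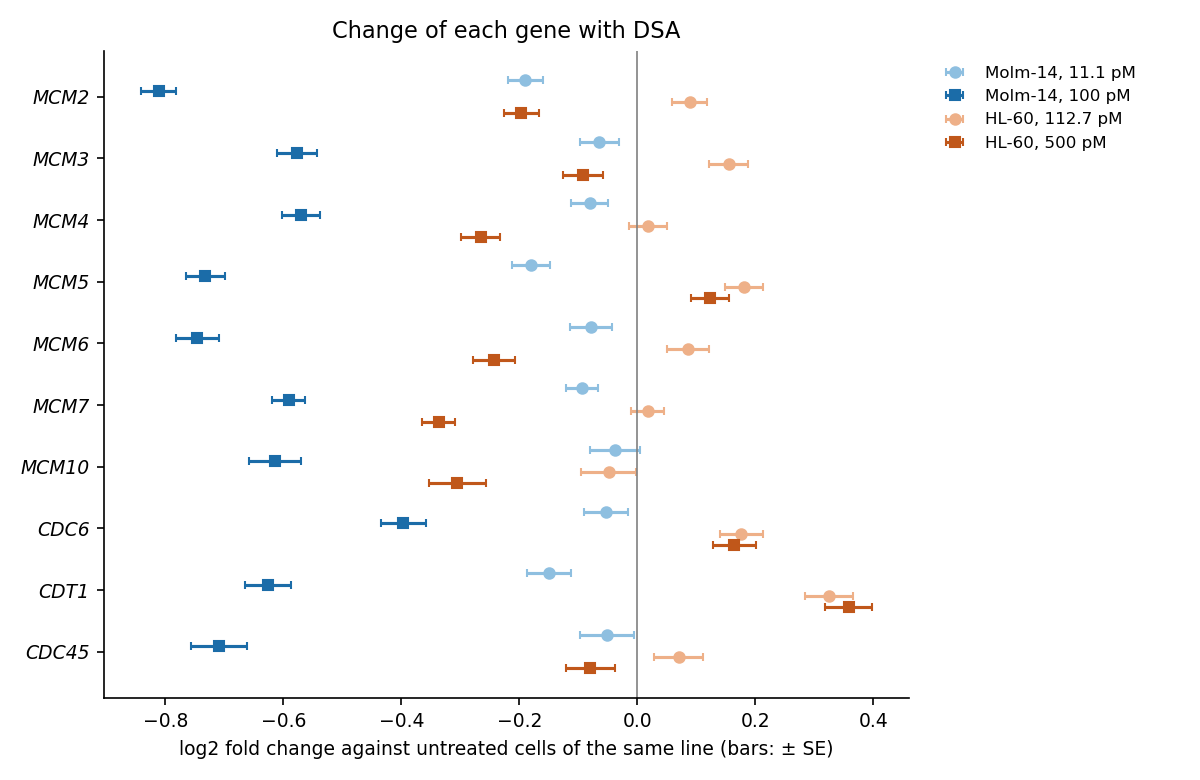
Log2 fold change of each of the 10 genes against untreated cells of the same line, with bars of ± SE, for Molm-14 cells at 11.1 and 100 pM and HL-60 cells at 112.7 and 500 pM DSA. At 100 pM in Molm-14 cells all 10 points lie between −0.81 and −0.40, whereas at 500 pM in HL-60 cells they run from −0.34 (MCM7) to 0.36 (CDT1).

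CDC6 and CDT1, which load the helicase, moved in opposite directions in the lines. CDT1 (chr16:88803789-88809258, hg38) stood at 192 and 198 CPM in the Molm-14 controls, at 172 and 180.2 CPM at 11.1 pM, and at 128 and 125 CPM at 100 pM. In HL-60 cells it stood at 98.9 and 97.5 CPM in the controls, at 125 and 121 CPM at 112.7 pM, and at 129 and 123 CPM at 500 pM. The libraries of treated and control cells did not overlap at any dose. CDT1 fell at 100 pM in Molm-14 cells (log2 fold change −0.63, SE 0.039, adjusted p = 2.27e-10) and rose in HL-60 cells at the low dose (0.33, SE 0.040, adjusted p = 2.07e-06) and the high dose (0.36, SE 0.040, adjusted p = 1.53e-07). At 11.1 pM in Molm-14 cells its log2 fold change of −0.15 (SE 0.038) had an adjusted p of 0.0616. With DESeq2 this p was 0.0336 and with limma-voom 0.0475.

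CDC6 (chr17:40287879-40304657), an ATPase that recruits CDT1 and the rings to the origin, was the member that fell least at 100 pM in Molm-14 cells. Its levels there were 88.4 and 86.2 CPM in the controls, 85.1 and 83.2 CPM at 11.1 pM, and 65.9 and 66.7 CPM at 100 pM. The HL-60 controls had 88.6 and 88.3 CPM, the libraries at 112.7 pM 101 and 99.0 CPM, and those at 500 pM 99.4 and 99.0 CPM. All 4 treated HL-60 libraries thus lay above both controls, and both Molm-14 libraries at 100 pM lay below theirs. CDC6 fell at 100 pM in Molm-14 cells (−0.40, SE 0.038, adjusted p = 9.64e-08) and rose at 112.7 pM (0.18, SE 0.037, adjusted p = 0.00057) and 500 pM in HL-60 cells (0.16, SE 0.037, adjusted p = 0.000536).

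Among the 6 subunits of the ring, MCM2, MCM5 and MCM6 fell most at 100 pM in Molm-14 cells. MCM2 (chr3:127598410-127622436) is a subunit at the gate where the ring opens and also binds histones. It stood at 396 and 388 CPM in the Molm-14 controls, at 345 and 342 CPM at 11.1 pM, and at 219 and 227 CPM at 100 pM, so each dose lay apart from the next. In HL-60 cells MCM2 stood at 536 and 536 CPM in the controls, at 567 and 573 CPM at 112.7 pM, and at 463 and 472 CPM at 500 pM. It thus lay above the controls at the low dose and below them at the high dose. MCM2 fell 1.76-fold at 100 pM in Molm-14 cells (−0.81, SE 0.030, adjusted p = 1.75e-13) and was also lower at 11.1 pM (−0.19, SE 0.030, adjusted p = 0.00211). In HL-60 cells it rose slightly at 112.7 pM (0.09, SE 0.029, adjusted p = 0.0159) and fell at 500 pM (−0.20, SE 0.029, adjusted p = 6.81e-06). The fall at 500 pM was not called with total-count scaling (−0.01, adjusted p = 0.693). The rise at 112.7 pM was not called without HL-60 control replicate 1 (adjusted p = 0.0735), control replicate 2 (0.0672) or low-dose replicate 2 (0.0727). The lower level at 11.1 pM was not called without Molm-14 control replicate 1 (adjusted p = 0.0776).

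MCM5 (chr22:35400134-35425431), which forms the gate of the ring together with MCM2, was the subunit whose response differed most between the lines. Its levels in Molm-14 cells were 342 and 344 CPM without DSA, 304 and 302 CPM at 11.1 pM, and 212 and 201 CPM at 100 pM. In HL-60 cells they were 357 and 358 CPM in the controls, 403 and 409 CPM at 112.7 pM, and 398 and 382 CPM at 500 pM. Both doses lay below the controls in Molm-14 and above them in HL-60 cells. MCM5 fell at 11.1 pM (−0.18, SE 0.033, adjusted p = 0.00798) and 100 pM (−0.73, SE 0.033, adjusted p = 2.56e-12) in Molm-14 cells. It rose at 112.7 pM (0.18, SE 0.032, adjusted p = 0.000116) and 500 pM (0.12, SE 0.032, adjusted p = 0.00202) in HL-60 cells. The fall at 11.1 pM was not called without Molm-14 control replicate 1 (adjusted p = 0.103), control replicate 2 (0.0638) or low-dose replicate 2 (0.0608).

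MCM4, MCM6 and MCM7 form the catalytic core of the ring, and with TMM scaling all of them fell at the high dose in both lines. MCM6 (chr2:135839626-135876443) stood at 341 and 318 CPM in the Molm-14 controls, at 311 and 313 CPM at 11.1 pM, and at 193 and 199.8 CPM at 100 pM. In HL-60 cells MCM6 stood at 347 and 332 CPM in the controls, at 359 and 362 CPM at 112.7 pM, and at 288 and 286 CPM at 500 pM. At the high doses the treated libraries lay below both controls. MCM6 fell at 100 pM in Molm-14 cells (−0.75, SE 0.036, adjusted p = 8.06e-12) and at 500 pM in HL-60 cells (−0.24, SE 0.036, adjusted p = 5.96e-06), though with total-count scaling the latter was −0.06 and not called (adjusted p = 0.118). At 112.7 pM its log2 fold change of 0.09 (SE 0.036) had an adjusted p of 0.0502, and it was called with RLE factors (0.0031) and DESeq2 (0.000771), among others.

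MCM7 (chr7:100092233-100101940) stood at 621 and 623 CPM in the Molm-14 controls, at 590.2 and 576 CPM at 11.1 pM, and at 409 and 417 CPM at 100 pM. The HL-60 controls had 621 and 614 CPM, the libraries at 112.7 pM 619 and 631 CPM, and those at 500 pM 489 and 489 CPM. The libraries at 500 pM thus lay below all other HL-60 libraries, and those at 100 pM below all other Molm-14 libraries. MCM7 was the member that fell most at 500 pM in HL-60 cells (−0.34, SE 0.028, adjusted p = 2.48e-09), and it fell in Molm-14 cells at 100 pM (−0.59, SE 0.028, adjusted p = 4.81e-12).

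MCM4 (chr8:47960185-47978160) stood at 810 and 799.5 CPM in the Molm-14 controls, at 771 and 751 CPM at 11.1 pM, and at 533 and 552 CPM at 100 pM. In HL-60 cells it stood at 366 and 349 CPM in the controls, at 366 and 358 CPM at 112.7 pM, and at 293 and 301 CPM at 500 pM. Even at 100 pM the Molm-14 level of MCM4 was above that of every HL-60 library. MCM4 fell in Molm-14 cells at 100 pM (−0.57, SE 0.032, adjusted p = 5.36e-11) and in HL-60 cells at 500 pM (−0.27, SE 0.033, adjusted p = 6.27e-07).

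MCM3 (chr6:52264014-52284881), a further subunit of the ring, stood at 505 and 489 CPM in the Molm-14 controls, at 490 and 461 CPM at 11.1 pM, and at 329 and 338 CPM at 100 pM. In HL-60 cells MCM3 stood at 431 and 424 CPM in the controls, at 474 and 479 CPM at 112.7 pM, and at 408 and 396 CPM at 500 pM. It fell at 100 pM in Molm-14 cells (−0.58, SE 0.034, adjusted p = 1.08e-10). In HL-60 cells it rose at the low dose (0.16, SE 0.034, adjusted p = 0.000748) and was slightly below the controls at the high dose (−0.09, SE 0.034, adjusted p = 0.02). With total-count scaling MCM3 was called higher at 500 pM (0.09, adjusted p = 0.0132). The call of a lower level there did not hold with RLE factors (adjusted p = 0.325) or DESeq2 (0.336), without HL-60 control replicate 1 (0.0812) or without high-dose replicate 2 (0.125).

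**Figure D3:**
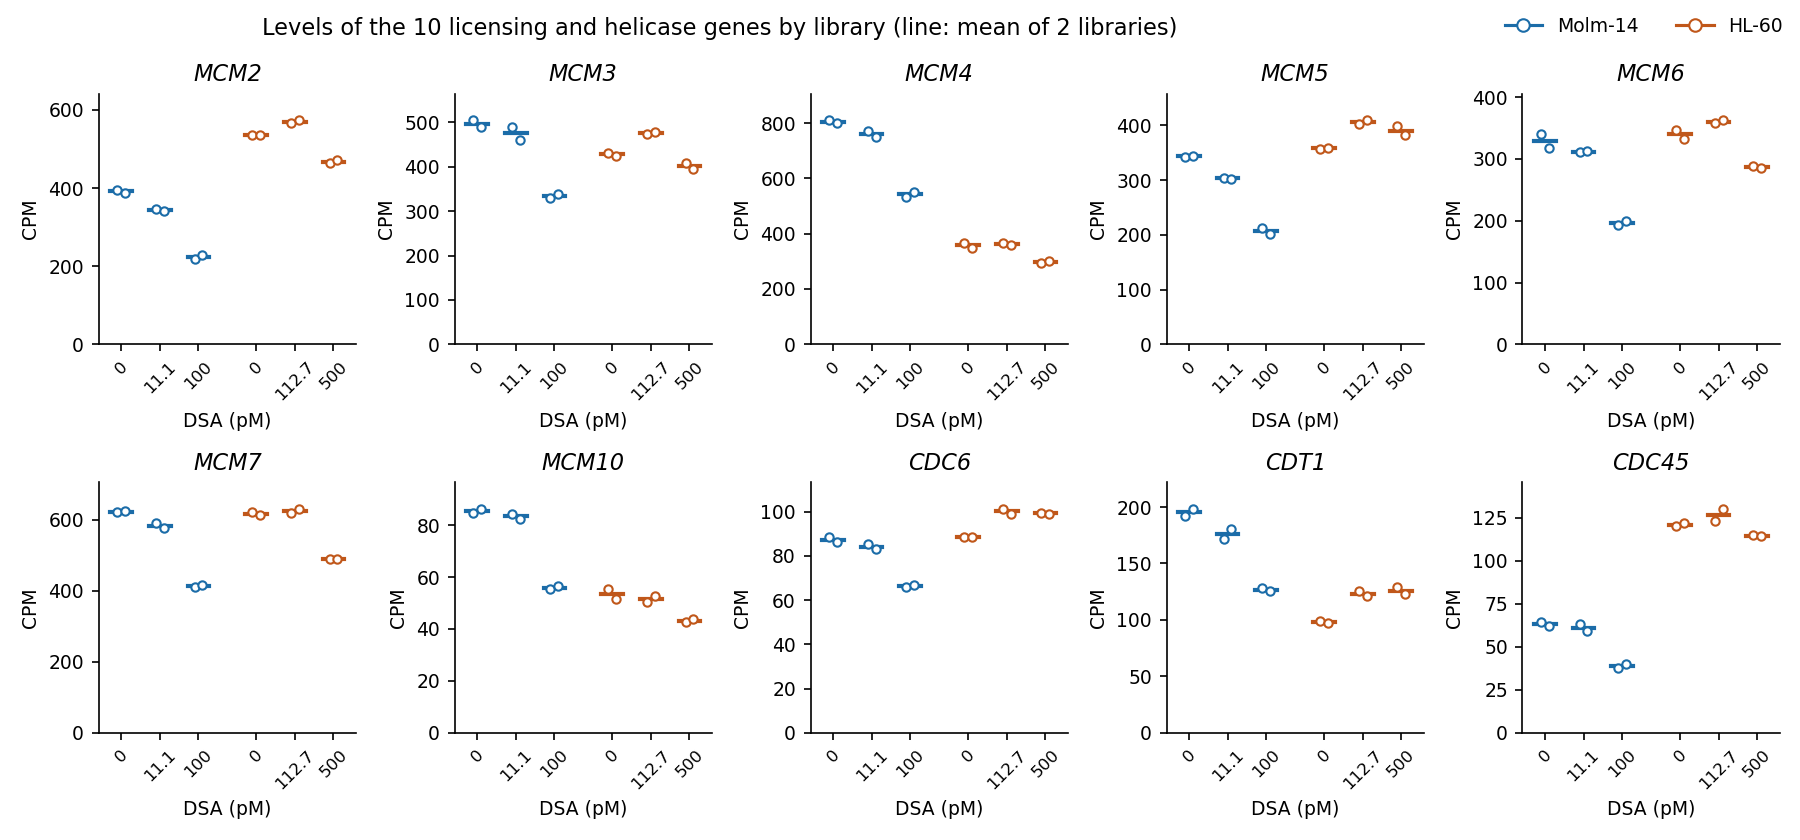
CPM of each of the 10 genes in every library (points) with the mean of 2 libraries (lines), against the DSA dose in pM for Molm-14 (blue) and HL-60 cells (orange), on axes that start at 0. In every panel the 2 blue points at 100 pM lie below all other blue points, whereas the orange points at 500 pM lie above the controls for MCM5, CDC6 and CDT1 and below them for the other 7 genes.

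The helicase activators CDC45 and MCM10 fell in Molm-14 cells, and on the CPM scale MCM10 fell at 500 pM in HL-60 cells as well. CDC45 (chr22:19479457-19520612), which joins the loaded ring at firing, stood at 64.6 and 62.1 CPM in the Molm-14 controls, at 63.0 and 59.3 CPM at 11.1 pM, and at 37.7 and 39.8 CPM at 100 pM. In HL-60 cells CDC45 stood at 120.1 and 122 CPM in the controls, at 123 and 130.2 CPM at 112.7 pM, and at 115 and 114 CPM at 500 pM. The drop was clear of the controls in Molm-14 cells (−0.71, SE 0.048, adjusted p = 8.4e-10), whereas at 500 pM in HL-60 cells the log2 fold change of −0.08 (SE 0.042) had an adjusted p of 0.0921. MCM10 (chr10:13161558-13211110) stood at 84.8 and 86.3 CPM in the Molm-14 controls, at 84.2 and 82.5 CPM at 11.1 pM, and at 55.4 and 56.4 CPM at 100 pM. Its HL-60 levels were 55.5 and 51.6 CPM in the controls, 50.4 and 52.7 CPM at 112.7 pM, and 42.6 and 43.7 CPM at 500 pM. MCM10 was the 1 member whose HL-60 low-dose mean lay below the control mean (log2 fold change −0.05, SE 0.047, adjusted p = 0.414), and it fell at 500 pM (−0.30, SE 0.048, adjusted p = 1.2e-05) and at 100 pM in Molm-14 cells (−0.61, SE 0.044, adjusted p = 2.06e-09).

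Between the doses of a line, members were called lower and none higher with TMM scaling. In Molm-14 cells all 10 genes were lower at 100 pM than at 11.1 pM and none was higher, with log2 differences from −0.67 (MCM6) to −0.34 (CDC6), while 18.5% of all genes were lower and 19.6% higher. In HL-60 cells 7 were lower at 500 pM than at 112.7 pM and none was higher, while 26.8% of all genes were lower and 25.9% higher. The largest HL-60 step was that of MCM7 (−0.35, SE 0.028, adjusted p = 6.22e-09). The 3 that did not pass the test were CDT1 (0.03, SE 0.041), CDC6 (−0.01, SE 0.038) and MCM5 (−0.06, SE 0.033), the same genes that stayed above the HL-60 controls. The step of CDC45 (−0.15, adjusted p = 0.00658) was not called without HL-60 low-dose replicate 2 (0.108). With total-count scaling it was −0.0391 and not called (adjusted p = 0.448). Under that scaling CDT1 (0.144, adjusted p = 0.00798) and CDC6 (0.0985, adjusted p = 0.0347) were called higher at 500 pM than at 112.7 pM.

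The change with the high dose was more positive in HL-60 than in Molm-14 cells at all 10 genes and less positive at none, while 25.1% of all genes tested had a more positive and 30.3% a more negative change. This difference of log2 fold changes was 0.98 for CDT1 (SE 0.055, adjusted p = 4.2e-11), 0.86 for MCM5 (SE 0.046, adjusted p = 2.36e-11) and 0.63 for CDC45 (SE 0.064, adjusted p = 1.09e-07). It was smallest for MCM7 (0.25, SE 0.039, adjusted p = 2.03e-05), MCM4 (0.30, SE 0.046) and MCM10 (0.31, SE 0.065), and the median of the set was 0.53 beside −0.02 over all genes. All 10 calls held under every alternative run, including each left-out library. The comparison is of 500 pM in HL-60 with 100 pM in Molm-14 cells, and no dose was shared.

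Scaling moves the HL-60 values. With TMM the median log2 fold change of all genes at 500 pM was 0.00, with 5075 genes lower and 4802 higher, whereas with scaling by total counts alone the median was 0.176, with 3376 lower and 6304 higher. Under the latter 3 of the 10 genes were lower (MCM4, MCM7 and MCM10) and 5 higher, with MCM3 at 0.09 and CDC45 at 0.10 instead of below 0. At 112.7 pM total-count scaling moved the median of all genes to 0.0716, with 2696 lower and 4231 higher instead of 3683 and 3254, and 9 of the 10 genes were then higher. The rise of CDT1, CDC6 and MCM5 and the fall of MCM4, MCM7 and MCM10 at 500 pM were called under both scalings. In Molm-14 cells at 100 pM the median of all genes moved from 0.00377 to 0.0366, and all 10 genes were lower under both.

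Within the ring transcripts the share of MCM4 differed between the lines more than it moved with dose. The TPM of MCM2 to MCM7 summed in Molm-14 cells to 1342 and 1330 without DSA, 1261 and 1237 at 11.1 pM, and 842 and 869 at 100 pM. In HL-60 cells the sum was 1202 and 1148 in the controls, 1256 and 1237 at 112.7 pM, and 1102 and 1101 at 500 pM. The sum at the high dose thus lay below that of the controls in both lines, by a wider margin in Molm-14 cells. MCM4 held 32.5% ± 0.599 of this sum in Molm-14 and 16.5% ± 0.161 in HL-60 controls, and 33.1% ± 0.29 and 15.8% ± 0.637 at the high doses. MCM5 took 16.6% ± 0.251 of the sum in HL-60 controls, 17.8% ± 0.176 at 112.7 pM and 19.5% ± 1.11 at 500 pM, whereas MCM7 went from 25.6% ± 0.29 to 24.4% ± 0.0881 and 23.0% ± 0.604. In Molm-14 cells the share of MCM2 went from 10.4% ± 0.0596 in the controls to 9.94% ± 0.119 at 11.1 pM and 9.38% ± 0.371 at 100 pM. The most abundant subunit exceeded the least abundant by a TPM ratio of 4.37 ± 0.026 in Molm-14 and 2.77 ± 0.0796 in HL-60 controls. These shares are descriptions without a test.

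**Figure D4:**
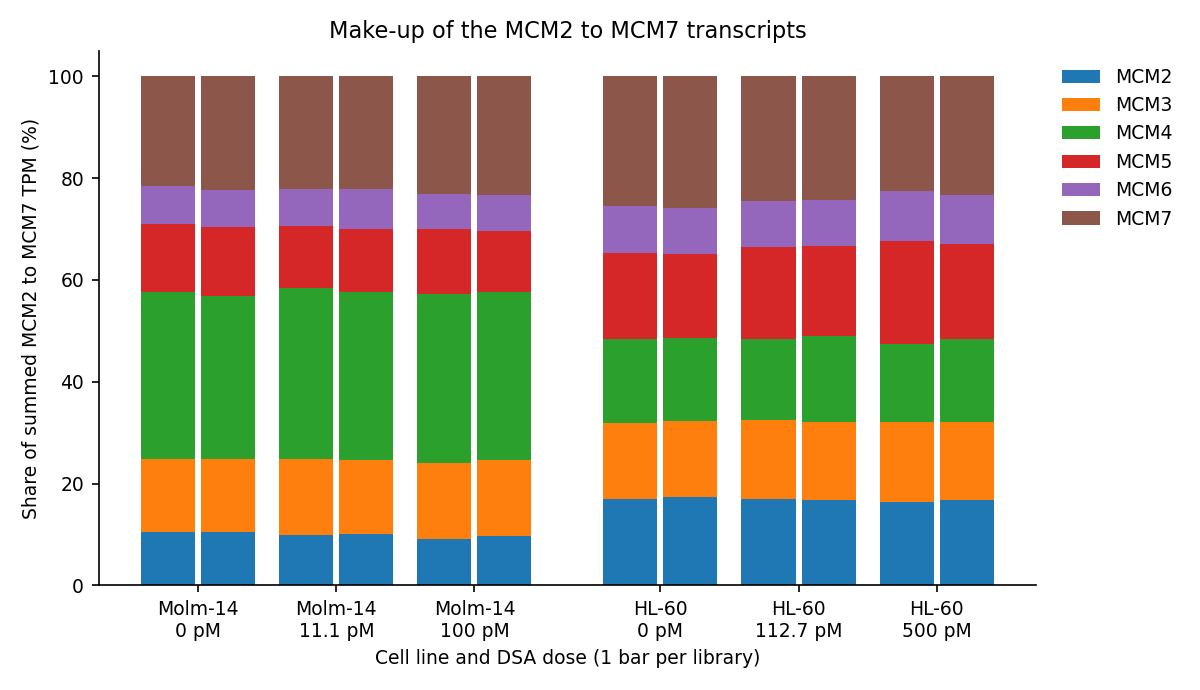
Share of each subunit in the summed TPM of MCM2 to MCM7, in percent, with 1 bar per library for each line and dose in pM. The green MCM4 segment takes between 32.0 and 33.7% in the 6 Molm-14 libraries and between 15.4 and 16.9% in the 6 HL-60 libraries.

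CDT1 and its inhibitor geminin did not move in parallel in HL-60 cells. In Molm-14 cells GMNN stood at 67.8 and 68.0 CPM without DSA and at 52.4 and 51.9 CPM with 100 pM, a fall of −0.38 (log2, SE 0.054, adjusted p = 1.21e-05). In HL-60 cells it stood at 75.5 and 76.8 CPM in the controls and at 57.4 and 65.9 CPM at 500 pM, a fall of −0.30 (log2, SE 0.053, adjusted p = 5.49e-05), and its high-dose change did not pass the test of a difference between the lines (0.08, adjusted p = 0.363). The change of GMNN at 112.7 pM (−0.12, adjusted p = 0.0714) was not called. The ratio of CDT1 to GMNN in TPM was 1.424 and 1.428 without DSA, 1.242 and 1.258 at 11.1 pM, and 1.189 and 1.161 at 100 pM in Molm-14 cells. In HL-60 cells the ratio was 0.6496 and 0.6478 in the controls, 0.9588 and 0.9298 at 112.7 pM, and 1.136 and 0.968 at 500 pM. It therefore went down with dose in Molm-14 and up in HL-60 cells, with no overlap between treated and control libraries.

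A list of 62 other replication genes, covering origin recognition and licensing control, origin firing, DNA synthesis and helicase unloading, was examined in the same fit. At 100 pM in Molm-14 cells 54 of the 62 were lower and 2 higher, with a median log2 fold change of −0.35, where 21.9% of all genes tested were lower and 22.9% higher. All 16 origin firing genes were lower there, among them GINS2 (−0.77, SE 0.056), part of the active helicase, and TOPBP1 (−0.48, SE 0.038), which helps CDC45 to join. Of the 15 genes of licensing control 11 were lower and none higher, such as ORC1 (−0.68, SE 0.054), the largest origin recognition subunit, and DTL (−0.58, SE 0.044), which directs the destruction of CDT1. At an unadjusted p under 0.05 these counts over the 62 genes were also 54 and 2. Of the 24 synthesis genes 22 were lower, for instance POLA1 (−0.68, SE 0.047), the catalytic subunit of polymerase alpha, and RFC5 (−0.52, SE 0.044), part of the clamp loader. Of the 7 unloading genes 5 were lower and 1 higher, with LRR1 at −0.32 (SE 0.056), which directs removal of the finished helicase, and NPLOC4 at 0.20 (SE 0.038). The synthesis gene POLD4, a small subunit of polymerase delta, was the other higher gene (0.67, SE 0.068).

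At 500 pM in HL-60 cells 29 of the 62 were lower and 18 higher, with a median of −0.10, where 37.8% of all genes were lower and 35.8% higher. The origin firing genes were evenly split, 7 lower and 7 higher, with DBF4, the activator of the CDC7 kinase, at −0.97 (SE 0.054) and TIMELESS, a fork protection protein, at 0.54 (SE 0.040). Licensing control had 9 lower and 4 higher genes, with SKP2, a ubiquitin ligase subunit that targets CDT1, at −0.70 (SE 0.038), and ORC4 at −0.67 (SE 0.056). Synthesis had 9 lower and 4 higher genes, with POLD4 at 1.70 (SE 0.082) and POLE3, a small subunit of polymerase epsilon, at −0.63 (SE 0.034). Unloading had 4 lower and 3 higher, with FAF1 at −0.62 (SE 0.042) and LRR1 at −0.57 (SE 0.052). With total-count scaling the split was 17 lower and 29 higher.

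At 112.7 pM in HL-60 cells 16 of the 62 were lower and 21 higher, where 27.4% of all genes were lower and 24.2% higher. Among them were DBF4 at −0.66 (SE 0.053), TIMELESS at 0.42 (SE 0.040), ORC4 at −0.43 (SE 0.055) and SKP2 at −0.31 (SE 0.038). The synthesis genes FEN1, the flap nuclease of Okazaki fragments, and RFC3 moved apart there (0.26, SE 0.034 and −0.37, SE 0.040), and the unloading genes CUL2 and FAF1 were lower (−0.33, SE 0.050 and −0.23, SE 0.041). At 11.1 pM in Molm-14 cells, where 0.238% of all genes were lower and 0.969% higher, edgeR called none of the 62, and 10 were lower and 2 higher at an unadjusted p under 0.05. DESeq2 and limma-voom also called none, whereas 1 gene was called higher with total counts, without a filter, at a mean of at least 50 counts, with the replicate block, with only the libraries compared and without Molm-14 control replicate 2. The smallest p was that of ORC6 (0.23, SE 0.057, adjusted p = 0.0537), and GINS2 (−0.16), DTL (−0.12), GINS3 (−0.12), POLE (0.12), PCNA (−0.10), VCP (−0.07) and FAF1 (−0.06) were the others with the smallest p of their role.

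**Figure D5:**
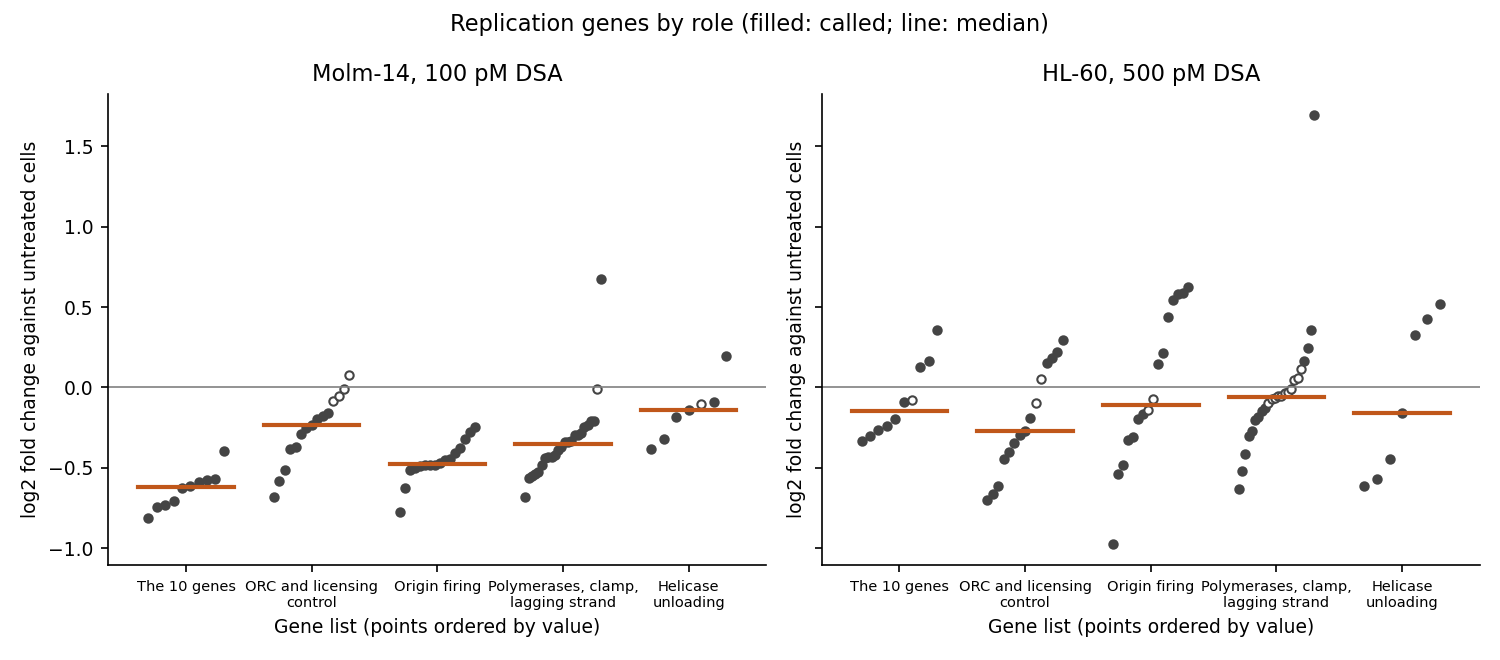
Log2 fold change against untreated cells for the 10 genes and for 62 other replication genes by role, at 100 pM in Molm-14 (left) and 500 pM in HL-60 cells (right); filled points were called, open points were not, and lines are medians. In Molm-14 cells the median of each of the 5 lists lies below 0 and 2 filled points of the other lists lie above it, whereas in HL-60 cells each list has filled points on both sides.

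Of the 10 genes, 4 share a start region with a gene on the opposite strand, and these neighbours did not follow them throughout. Distances and overlaps are taken from GENCODE starts. For MCM7 and CDC45 these lie upstream of the RefSeq starts used for the printed stretches. TPRA1, whose start lies 143 bases from that of MCM2, stood at 25.1 ± 0.358 CPM without DSA and at 24.8 ± 1.32 CPM with 100 pM in Molm-14 cells (log2 fold change −0.01, SE 0.063, adjusted p = 0.891), where MCM2 fell. At 500 pM in HL-60 cells TPRA1 was higher (0.14, SE 0.053, adjusted p = 0.0262), where MCM2 was lower. PRKDC, the catalytic subunit of DNA-dependent protein kinase, starts 7 bases from MCM4 and was lower at both high doses (−0.25, SE 0.040 in Molm-14 and −0.32, SE 0.042 in HL-60 cells). Like MCM4 it was lower in HL-60 than in Molm-14 controls (−1.08, SE 0.041). UFD1, a cofactor of the VCP unloading machine that starts 255 bases from CDC45, was lower at 100 pM in Molm-14 cells (−0.14, SE 0.049) and higher at 500 pM in HL-60 cells (0.43, SE 0.042). AP4M1, which starts 391 bases from MCM7 and overlaps it by 392 bases, was called at no dose. Whether the counting used strand is not stated in the sources used here, and reads from the overlap may have been split between both genes. AP4M1 had 10.7 to 12.3 CPM on average in a group, and summing overlapping genes changed no call of the 10 genes. The miRNA genes MIR25, MIR93 and MIR106B inside MCM7 had at most 1 count in any library.

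The genes whose pattern was most like the set, by Pearson correlation of log2 CPM centred within each line with the mean of the 10 genes over 12 libraries, were SLC29A1 (r = 0.993), RFC1 (0.991), DUT (0.990), GINS3 (0.990) and TRIP13 (0.988). SLC29A1 is a nucleoside transporter and DUT keeps uracil out of DNA, RFC1 is the largest clamp loader subunit, and TRIP13 is an ATPase of the spindle checkpoint. At 100 pM in Molm-14 cells these 5 were lower by log2 fold changes from −0.62 (GINS3) to −0.30 (RFC1). Within the set the correlation with the mean was highest for MCM2 (0.991) and lowest for CDT1 (0.805). Over the 6 Molm-14 libraries alone it was at least 0.987 for each member, while over the 6 HL-60 libraries it was −0.0256 for CDT1, 0.116 for CDC6 and 0.359 for MCM5. Between members the closest pair was MCM4 and MCM7 (r = 0.992), CDC6 and CDT1 reached 0.972, and MCM7 and CDT1 had the lowest value (0.564). These correlations are descriptions over libraries that share dose groups, and each member is itself part of the mean.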

How the data were processed

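RNA of Molm-14 and HL-60 cells was sequenced in 12 libraries, 2 per line and dose. The authors trimmed reads (Trim Galore 0.60), aligned them to hg38 (STAR 2.7) and quantified GENCODE 31 genes with RSEM 1.31. The deposited expected counts carry no filter or scaling and were tested after rounding. The deposited TPM, scaled by the authors for length and depth, ordered genes by level, and the deposited effective lengths served to check that order. FPKM values were not used.

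Identifiers were looked up in GENCODE 44 (60261 of 60754 matched), 45 pseudoautosomal Y copies were left out, and 19868 protein-coding genes of level 1 or 2 were kept, as in the study. With edgeR 4.0.16 (R 4.3.3), filterByExpr left 13422 genes, TMM scaled the libraries, and glmQLFit with 1 mean per group over 12 libraries and glmQLFTest gave 8 comparisons. Calls are Benjamini-Hochberg adjusted p-values under 0.05, with no fold threshold. The SE is the log2 fold change divided by the square root of F. The test was tried on simulated data. Replicates differed by more than sampling noise (chi-square per degree of freedom 2.25 to 4.01).

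The 10 genes, lists and tests were chosen with earlier results of these data known. Also named are the 2 genes with the smallest p in each role and comparison of a dose with control, the 5 genes most like the set, neighbours that overlap or start within 1000 bases, GMNN, the markers, and, chosen after their values were seen, POLD4 at 100 pM and MCMBP. Alternatives were DESeq2 1.42.0, limma-voom (limma 3.58.1), RLE factors, total counts, no filter, at least 50 counts on average, every gene type, only the compared libraries, overlapping genes summed, the replicate block and leaving out each library. One marker gene is not reported here.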

Additional observations from a re-analysis of the deposited data

Results flagged for a closer look

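All 10 genes differed between the lines in their change with the high dose, by edgeR's test of the difference itself (the change in HL-60 at 500 pM minus that in Molm-14 cells at 100 pM, log2). The values were 0.98 for CDT1, 0.86 for MCM5, 0.63 for CDC45, 0.61 for MCM2, 0.56 for CDC6, 0.50 for MCM6, 0.48 for MCM3, 0.31 for MCM10, 0.30 for MCM4 and 0.25 for MCM7. The adjusted p-values ran from 2.36e-11 (MCM5) to 0.000496 (MCM10). For CDT1, MCM5 and CDC6 the change was negative in both Molm-14 high-dose libraries and positive in both HL-60 high-dose libraries. With TMM scaling it was negative in both lines for the other 7, and of smaller size in HL-60 cells. Of these 7, CDC45 was not called at 500 pM in HL-60 cells (−0.08, adjusted p = 0.0921). MCM3 was not called there with RLE factors or DESeq2. With total-count scaling MCM3 (0.0924) and CDC45 (0.104) were positive there. Lines, doses and media cannot be told apart in this design.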

How the results depend on the processing

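Of the values of single genes 1109 kept their direction and call under an alternative, 16 changed direction, 25 gained and 16 lost the call, and of the counts 327 stayed within 1.5 times and 17 did not. With total-count scaling 9 of the 10 genes were higher at 112.7 pM, 3 were lower and 5 higher at 500 pM, 2 were higher between the HL-60 doses, and the 62 replication genes split 17 lower and 29 higher at 500 pM. DESeq2 gave 4 lower at 11.1 pM and 8 higher at 112.7 pM. Leaving out 1 library gave 0 to 2 lower at 11.1 pM. Of the 62 genes 1 was higher at 11.1 pM with total counts, without a filter, at a mean of at least 50 counts, with only the libraries compared and with the replicate block, and 0 to 1 when a library was left out. With total counts MCM3 (0.0924) and CDC45 (0.104) at 500 pM, MCM5 (0.0522) and CDC6 (0.0985) between the HL-60 doses and MCM10 at 112.7 pM (0.0249) turned positive. MCM10 at 112.7 pM was 0.00235 with RLE factors and 0.000932 with DESeq2, and CDC6 between the HL-60 doses was 0.017 at a mean of at least 50 counts. CDC6 between the controls was −0.015 with RLE factors and with DESeq2, −0.00514 without a filter, −0.00526 with all gene types and −0.0161 with only the libraries compared. Leaving out 1 library gave −0.0183 to 0.0529 for MCM4 at 112.7 pM (lowest without HL-60 control 2), −0.00477 to 0.0717 for CDT1 between the HL-60 doses (lowest without high dose 1) and −0.00385 to 0.093 for MCM6 between the controls (lowest without Molm-14 control 2). The cause of these shifts was not tested. Replicate numbers did not pair samples (correlations of deviations −0.0697 to 0.0748), and the replicate block changed no other count, with 10 lower at 100 pM, and 6 lower and 3 higher at 500 pM. Counts of 0 of the set in 1 direction stayed 0 with DESeq2 and limma-voom. Depth ran from 21168248 to 63900114 counts per library. In HL-60 cells the controls had 40501448 and 63900114 counts, the low-dose libraries 21623637 and 31302299, and the high-dose libraries 21168248 and 31998558. All treated HL-60 libraries were thus shallower than both controls. The TMM factors were 0.9658 and 0.9704 in the HL-60 controls and 1.099 and 1.1 at the high dose. Molm-14 libraries ran from 34534072 to 39565428 counts. The part of depth in the HL-60 results was not tested.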

Other observations

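MCMBP, which binds the ring subunits and helps to remove them from chromatin, stood at 86.4 ± 0.191 TPM in Molm-14 and 34.2 ± 0.0354 TPM in HL-60 controls. At the high doses it stood at 74.4 ± 2.83 and 41.8 ± 0.544 TPM, so it went down in Molm-14 (log2 fold change −0.20, adjusted p = 7.19e-05) and up in HL-60 cells (0.18, adjusted p = 0.000165).

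All libraries of the high dose lay on one side of the controls for all 10 genes in both lines, 10 below in Molm-14, and 7 below and 3 above in HL-60 cells. Over all genes tested 34.5% lay below and 37.7% above in Molm-14, and 42.8% below and 41.6% above in HL-60 cells. At 11.1 pM 8 of the 10 lay below the controls, against 22.7% of all genes, and at 112.7 pM 7 lay above, against 36.5%.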
